A study of Mus musculus with 9 samples.

Results

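The interleukin-1 and Toll-like receptor axis was followed through 10 genes in mouse liver RNA: the ligands Il1a and Il1b, the antagonist Il1rn, the receptor genes Il1r1, Il1r2 and Il1rap, the microbial sensors Tlr2 and Tlr4, the co-receptor Cd14 and the inflammasome sensor Nlrp3. Each was found by its gene symbol, and all 10 were among the 27945 genes with a count. The 10 genes and the gene lists used below were chosen with earlier results of these data known. Their shares of called genes, set beside those of all genes, are therefore descriptions and not tests. A filter on low counts left 18113 genes to test, and 9 of the 10 were among them; Il1r2 was not. The 9 had at least 15 counts in every library, above the filter's minimum count of 10, so none was kept through 1 group alone.

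Polyadenylated RNA was sequenced in 9 libraries, with n = 3 each labelled control, model and treated. The series title concerns liver damage caused by gefitinib, a drug that blocks the kinase of the epidermal growth factor receptor. What the model and treated animals were given, and its dose and duration, are not in the labels, which also name no strain, sex, age or genotype. The material is called liver in 1 label and mouse liver cells in another. Separate animals are not mentioned, so each p-value measures the spread between these libraries, which may be technical. The model group enters 2 of the 3 comparisons, as do the control and treated groups, so the comparisons share libraries and their values are set side by side only.

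Interleukin-1 alpha and beta act through one receptor, a pair formed by the ligand-binding chain Il1r1 and the accessory chain Il1rap. The antagonist Il1rn occupies Il1r1 without recruiting the accessory chain, and Il1r2 binds ligand but carries no signalling domain. Toll-like receptors carry a related intracellular domain, most of them use the adaptor Myd88 as this receptor does (Tlr3 uses Ticam1 instead), and they also lead to the transcription factor NF-kappaB, which in liver is engaged in Kupffer cells, endothelium and hepatocytes by microbial products and by debris of dying cells.

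Library totals lay between 56440871 and 60665156 estimated counts, with 20579 to 21441 genes detected in each. All 10 hepatocyte markers had counts in each group, and they summed to 71150 to 103700 CPM (counts scaled to library size). Skeletal muscle markers, 11 genes, summed to 0.626 to 1.85 CPM in control and 153 to 198 CPM in treated libraries. In the model group they summed to 225 CPM in model 1, 1.315 in model 2 and 1.242 in model 3. They were therefore a second set of transcripts that differed between libraries, also within the model group, and their part in the results was not tested. None of the 11 was called by edgeR in any comparison. At an unadjusted p under 0.05 (edgeR) there were 10 in treated versus control, 4 in model versus control and 0 in treated versus model. Their median log2 fold change in treated versus control was 9.27.

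Il1rn and Il1rap each have several annotated coding forms, and the sequences that tell apart the 2 with most of the gene's FPKM are shown first because the transcript values below depend on them. They come from GENCODE M21 on GRCm38, plus strand. In Il1rn, capitals mark the coding bases that only that form has, and lower case the coding bases that both share; the longer start encodes the signal peptide of the secreted antagonist, which the intracellular form lacks.
Il1rn secreted form, coding start: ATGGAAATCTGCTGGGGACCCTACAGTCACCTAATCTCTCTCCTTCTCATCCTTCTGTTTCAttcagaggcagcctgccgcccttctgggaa
Il1rn intracellular form, coding start: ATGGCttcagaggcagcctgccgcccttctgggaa
In Il1rap, the lower case bases are shared and the capitals are the form's own; the short form ends with the capitals shown and lacks the membrane-spanning part, while the long form continues into it.
Il1rap short form, coding end: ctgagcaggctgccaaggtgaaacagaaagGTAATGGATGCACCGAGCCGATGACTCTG
Il1rap long form, same place: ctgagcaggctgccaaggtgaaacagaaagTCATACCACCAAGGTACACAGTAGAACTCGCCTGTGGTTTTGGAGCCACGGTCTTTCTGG
The secreted Il1rn reading frame has 178 codons and the intracellular one 159. The short Il1rap frame has 360 codons and the long one 570. Other annotated frames were minor: ENSMUST00000114485 of Il1rn (162 codons) reached 17.7% of Il1rn FPKM in control 2, from 17 counts, and ENSMUST00000096129 of Il1rap (685 codons), a second long form, at most 0.439%.

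Across the 3 groups, Il1rn, Tlr2 and Cd14 stood highest in treated livers and rose against both other groups, Il1r1 rose from model to treated, and Il1rap fell from control to treated. Il1b, Tlr4 and Nlrp3 passed no test. Between model and control, edgeR's quasi-likelihood test called 0 of the 9 genes, where 1.12% of all genes tested were called (0.519% higher and 0.596% lower). At an unadjusted p under 0.05 there were 4 (Il1a, Il1r1, Il1rap and Tlr2), limma-voom called 0, and DESeq2 called Tlr2 higher and Il1r1 and Il1rap lower. Between treated and model, 4 of 9 were called, all higher, against 9.65% of all genes (5.21% higher and 4.44% lower). Between treated and control, 3 were called higher and 1 lower, against 17.8% of all genes (9.36% higher and 8.47% lower). The median log2 fold change of the 9 was -0.32 for model versus control, 0.98 for treated versus model and 0.66 for treated versus control, and that of all genes lay at -0.001, 0.005 and -0.009.

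The libraries of 2 groups can be fully separated without passing a test. Model and control did not overlap in 5 of the 9 genes, against 20.0% of all genes. Treated and model did not overlap in 7, against 31.2%, and treated and control in 5, against 37.3%. In bulk RNA, fewer cells of a type and less RNA per cell cannot be told apart, which holds for each gene below.

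**Figure D1:**
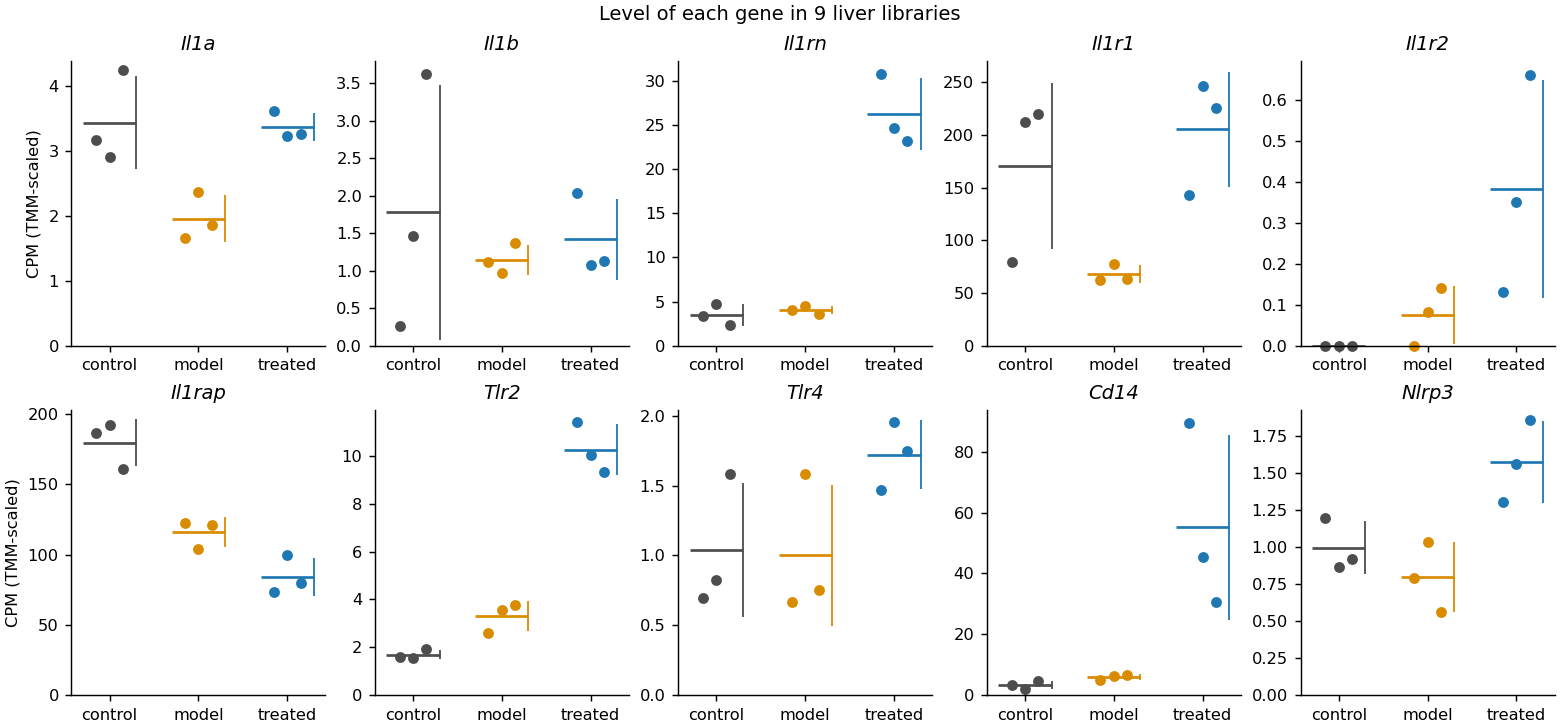
CPM of the 10 genes in each of the 9 libraries, on linear axes that start at 0 (points), with the group mean (horizontal line) and SD (vertical line). The 3 treated libraries lie above all 6 others for Il1rn, Tlr2, Cd14 and, by small margins, Nlrp3, which passed no test. They lie below all 6 others for Il1rap.

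**Figure D2:**
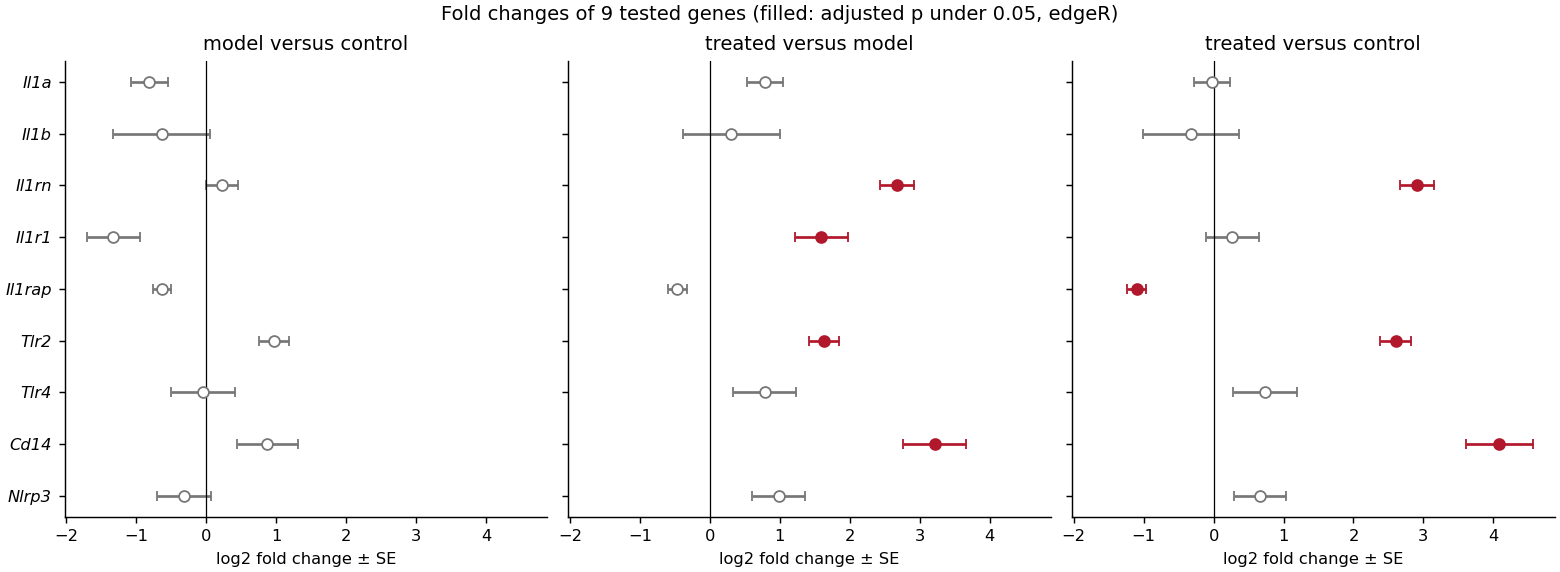
Log2 fold changes of the 9 tested genes with their standard errors in the 3 comparisons; filled points passed an adjusted p of 0.05. Cd14 has the largest value in treated versus control, 4.09, and Il1rap the lowest, -1.10.

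Il1a, at chr2:129299610-129309972 on the minus strand, encodes the ligand that is active as a precursor and is released from damaged cells. It stood at 3.16, 2.90 and 4.25 CPM in control, 1.66, 2.36 and 1.86 in model, and 3.62, 3.24 and 3.26 in treated libraries 1 to 3. The model libraries were thus below every other library, while control and treated overlapped. The difference was 1.76-fold lower in model than control (log2 fold change -0.81, SE 0.26), which missed the threshold (adjusted p = 0.181, edgeR). It was 1.72-fold higher in treated than model (log2 fold change 0.78, SE 0.26; adjusted p = 0.0862, edgeR), and DESeq2 put that at 0.0299. Treated and control differed by a log2 fold change of -0.03 (SE 0.26; adjusted p = 0.965, edgeR). The antisense gene Gm14023 shares 222 of the 1974 exonic bases of Il1a and had 3 to 31 counts per library; whether counting used strand is not given in the sources used here.

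Il1b, at chr2:129364570-129371139 on the minus strand, encodes the ligand that caspase-1 matures in the inflammasome. Control libraries read 0.268, 1.46 and 3.62 CPM, model libraries 1.12, 0.966 and 1.37, and treated libraries 2.04, 1.08 and 1.13. The control libraries spanned the full range of the other 6, so the 3 groups overlapped. Adjusted p-values by edgeR were 0.773 for model versus control, 0.849 for treated versus model and 0.803 for treated versus control. The standard error of 0.69 on the log2 scale was the widest of the 9 genes in each comparison. Il1bos, an antisense gene, shares 25 of its 1907 exonic bases and had at most 28 counts per library.

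Il1rn, at chr2:24336853-24351494 on the plus strand, gave the lowest adjusted p among the 9 in both comparisons of the treated group. The control libraries stood at 3.41, 4.75 and 2.35 CPM, the model libraries at 4.11, 4.53 and 3.66, and the treated libraries at 30.8, 24.7 and 23.2. Control and model overlapped and every treated library was far above both. From 4.10 ± 0.436 CPM in model, Il1rn rose to 26.2 ± 4.04 CPM (SD, n = 3 each), a log2 fold change of 2.68 (SE 0.24; adjusted p = 0.000198, edgeR). Against control (3.51 ± 1.20 CPM) it rose 7.48-fold (log2 fold change 2.90, SE 0.24; adjusted p = 5.09e-05, edgeR). Model and control differed by 0.23 on the log2 scale (SE 0.23; adjusted p = 0.755, edgeR).

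Both Il1rn forms were higher in treated libraries, in unequal parts. The secreted form read 0.962, 0.841 and 0.640 FPKM (fragments scaled to transcript length and library size) in control, 0.803, 1.15 and 1.16 in model and 10.5, 3.35 and 7.11 in treated libraries. The intracellular form read 0.388, 0.722 and 0.223 FPKM in control, 0.713, 0.667 and 0.283 in model and 3.95, 6.70 and 2.79 in treated libraries. The treated libraries were above all others for each form and differed in which form led. The secreted form made up 71.0% and 65.0% of Il1rn FPKM in treated 1 and treated 3, and 31.5% in treated 2, where the intracellular form made up 62.9%. These shares are estimates, because 472 coding bases are common to both forms, and they were not tested.

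The annotated starts of the 2 forms lie apart. DNA upstream of each is printed because both forms were higher in treated libraries; it is from RefSeq on GRCm38.p6, plus strand, and capitals mark a match to the AP-1 motif TGANTCA.
Il1rn, upstream start region, chr2:24336610-24336852: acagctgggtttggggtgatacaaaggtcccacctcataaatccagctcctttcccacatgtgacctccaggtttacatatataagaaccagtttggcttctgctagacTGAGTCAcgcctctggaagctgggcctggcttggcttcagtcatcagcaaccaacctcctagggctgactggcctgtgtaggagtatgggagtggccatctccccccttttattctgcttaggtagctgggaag
Il1rn, downstream start region, chr2:24345041-24345287: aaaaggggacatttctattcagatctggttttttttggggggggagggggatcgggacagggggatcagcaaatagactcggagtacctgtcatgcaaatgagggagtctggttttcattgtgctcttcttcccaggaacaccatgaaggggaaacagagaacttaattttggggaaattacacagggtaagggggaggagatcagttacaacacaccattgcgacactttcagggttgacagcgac
The match spans positions -141 to -135 from the RefSeq start at 24336860; the GENCODE start of the intracellular form is 24336853. The downstream window ends before the first of the nearby annotated starts, 24345288 of the form with 162 codons; the secreted form starts at 24345310, and RefSeq places starts at 24345291 and 24345371. It holds no match to the 4 motifs searched. AP-1 matches occur in 6.75% of 32851 promoters when 250 bases before each start are searched on both strands. A match is a description of letters only.

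**Figure D3:**
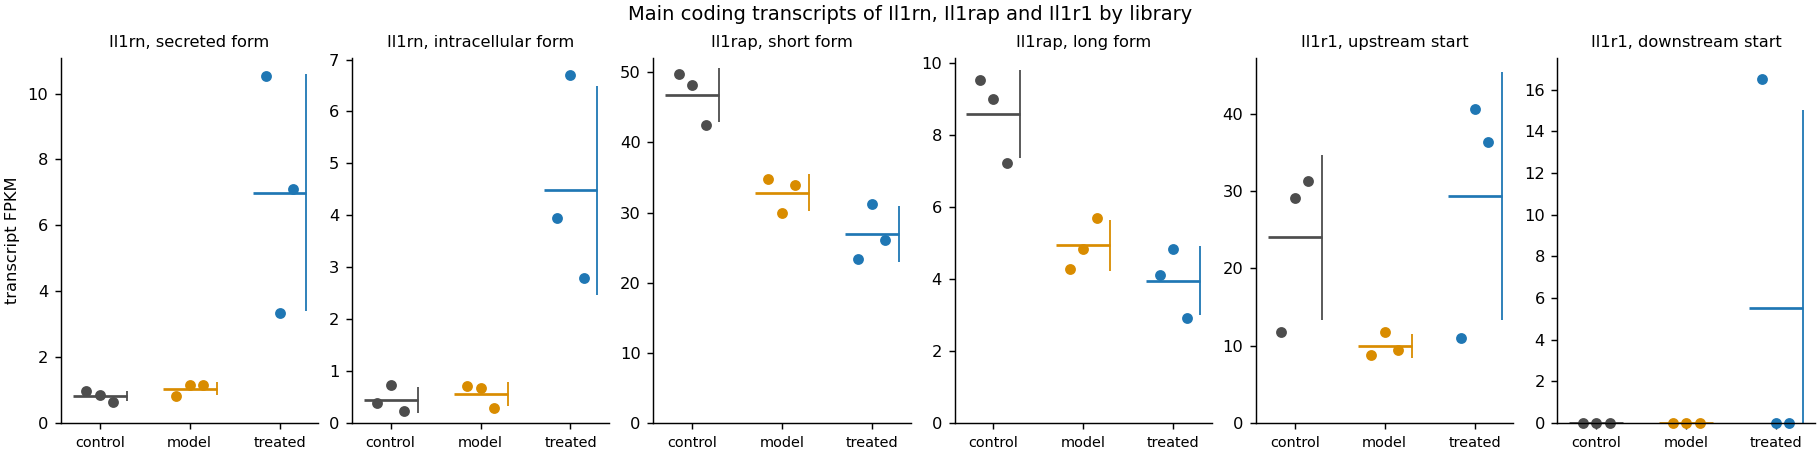
Transcript FPKM of the Il1rn, Il1rap and Il1r1 forms in each library (points), with the group mean (horizontal line) and SD (vertical line). In treated 2 the intracellular Il1rn form (6.70) exceeds the secreted one (3.35), and the second Il1r1 form was assigned FPKM in treated 1 alone. Transcript FPKM values are estimates.

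Since the antagonist competes with both ligands for one receptor, its level was set against theirs, per length and in each library. With transcript FPKM summed per gene and a pseudocount of 0.1, the ratio of Il1rn to Il1a was 1.02, 1.65 and 0.584 in control, 2.06, 1.72 and 1.94 in model and 7.69, 6.42 and 6.72 in treated libraries. The ratio to Il1b was 6.0, 1.88 and 0.471 in control, 2.10, 2.73 and 1.63 in model and 9.28, 11.8 and 12.6 in treated libraries. The treated libraries were above all others in both ratios, and the control libraries spread widely in the second, following Il1b. Gene-level FPKM gave lower ratios in the same order of groups. For Il1a they were 0.236 to 0.614 in control, 0.708 to 0.899 in model and 2.45 to 2.93 in treated libraries. For Il1b they were 0.267 to 3.03 in control, 0.948 to 1.52 in model and 4.93 to 6.90 in treated libraries. Whether Il1rn stood above Il1a in the model libraries, and in control 1 and control 2, thus depended on the measure. The ratios are RNA levels and were not tested.

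**Figure D4:**
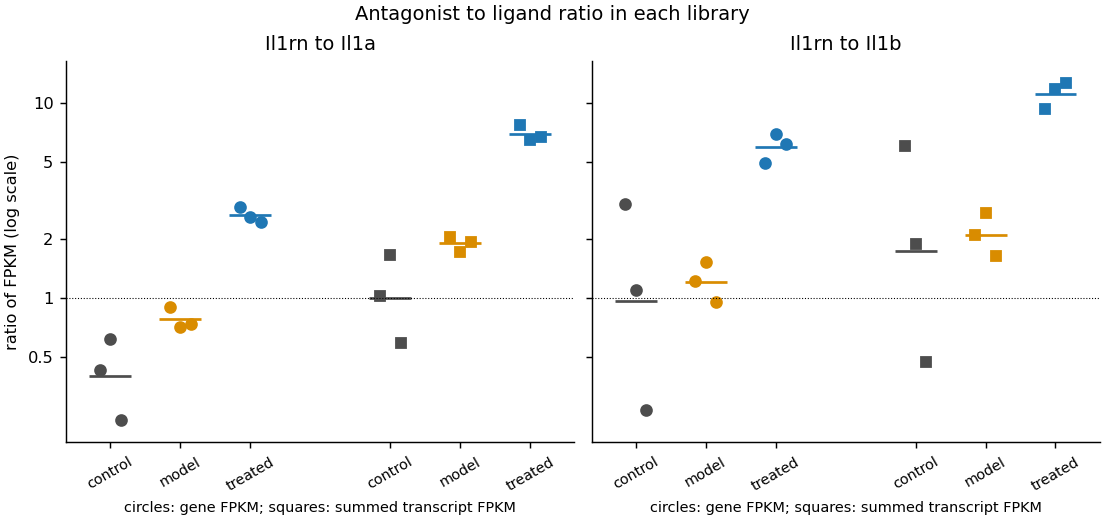
Ratio of Il1rn to Il1a and to Il1b in each library on a log axis, from gene FPKM (circles) and from summed transcript FPKM (squares); bars are geometric means and the dotted line is 1. Treated libraries lie at 6.42 to 7.69 for Il1a and 9.28 to 12.6 for Il1b from summed transcripts.

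Il1r1, at chr1:40225080-40317257 on the plus strand, encodes the signalling receptor chain. It stood at 79.7, 212 and 220 CPM in control, 62.6, 77.5 and 63.5 in model and 143, 247 and 226 in treated libraries. Control 1 was close to the model libraries and far from the other control libraries, and treated 1 was the lowest treated library; model did not overlap either other group. Il1r1 rose 3.02-fold from model to treated (log2 fold change 1.60, SE 0.38; adjusted p = 0.0409, edgeR). It was lower in model than control by -1.33 on the log2 scale (SE 0.38; adjusted p = 0.173, edgeR), while treated and control differed by 0.27 (SE 0.38; adjusted p = 0.694, edgeR).

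The rise of Il1r1 held a narrow margin. Its adjusted p was 0.0537 without control 2, 0.0515 without control 3, 0.137, 0.0895 and 0.127 without model 1, 2 or 3, and 0.0542, 0.113 and 0.117 without treated 1, 2 or 3. The log2 fold change ran from 1.44 to 1.80 in all of these. Without control 1 the difference between model and control was -1.67 and passed (adjusted p = 0.0104, edgeR). Endothelial cells are among those that carry this receptor. Of 12 endothelial markers, all tested, 9 were called lower in model than control and 6 in treated than model. That is 75% and 50%, against 0.596% and 4.44% of all genes called lower. The 12 markers summed to 399 to 505 CPM in control, 175 to 196 in model and 94.9 to 148 in treated libraries, with none at 0. Il1r1 and these markers were both low in model but moved apart in treated; a contribution of these cells was not tested. The transcript ENSMUST00000114795, which starts further downstream, was listed at 16.5 FPKM in treated 1, 59.3% of Il1r1 FPKM there, and at 0 in the other 8 libraries. Another transcript that starts near it, ENSMUST00000195402, had 2 to 32 counts in every library. Transcript values are estimates, so a start used in treated 1 alone is not shown.

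Il1r2, at chr1:40074079-40125231 on the plus strand, encodes the decoy receptor. It had 0, 0 and 0 counts in control, 0, 5 and 8 in model and 9, 23 and 42 in treated libraries. Each control library allows up to 3 counts. The treated mean of 0.381 CPM was at least 6.84-fold higher than that floor, taken per control library, and without treated 3 the bound was 4.33-fold. Treated and control did not overlap, while treated and model did in CPM. The gene was too low for the main test. Where an alternative kept it, its adjusted p for treated versus control was 0.0336 with no filter and 0.0248 without model 1, and ran up to 0.0815 in the others.

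Il1rap, at chr16:26581704-26730117 on the plus strand, encodes the accessory chain and, in its short form, a soluble protein known as a liver product. It was the highest of the 10 genes per length in control (56.0 ± 4.94 summed transcript FPKM, SD, n = 3). By mean gene FPKM it stood below Il1r1 there (13.1 against 22.0). It read 186, 192 and 161 CPM in control, 123, 104 and 121 in model and 73.2, 99.4 and 79.4 in treated libraries. The 3 groups stood in order without overlap. Il1rap fell 2.14-fold from control to treated (log2 fold change -1.10, SE 0.13; adjusted p = 0.000412, edgeR). The steps on either side of model each missed the threshold narrowly: -0.63 from control to model (SE 0.13; adjusted p = 0.0512, edgeR) and -0.47 from model to treated (SE 0.13; adjusted p = 0.051, edgeR). The first passed without treated 1 (0.0455) or treated 2 (0.034), and the second without treated 2 (0.0216).

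The short form led in all libraries. It read 49.7, 48.2 and 42.4 FPKM in control, 34.8, 29.9 and 33.9 in model and 23.4, 31.3 and 26.1 in treated libraries, and made up 83.1% to 89.0% of Il1rap FPKM. The long form, which carries the signalling domain, read 9.52, 9.01 and 7.22 FPKM in control, 4.28, 4.83 and 5.69 in model and 4.10, 4.84 and 2.93 in treated libraries. Both forms were thus highest in control. Antisense gene Gm20319 shares 552 of the 11360 exonic bases of Il1rap and had 1782 to 3160 counts per library. Of 10 hepatocyte markers, 3 were called lower in treated than control, 30% against 8.47% of all genes called lower. The 10 markers summed to 92240 to 103700 CPM in control and 71150 to 88600 in treated libraries, and their part in this result was not tested.

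Tlr2, at chr3:83836272-83841767 on the minus strand, encodes a receptor for bacterial lipoproteins. It stood at 1.61, 1.54 and 1.92 CPM in control, 2.61, 3.55 and 3.78 in model and 11.4, 10.1 and 9.32 in treated libraries. The 3 groups were ordered without overlap. Tlr2 rose 3.10-fold from model to treated (log2 fold change 1.63, SE 0.22; adjusted p = 0.00131, edgeR) and 6.07-fold from control to treated (log2 fold change 2.60, SE 0.22; adjusted p = 5.92e-05, edgeR). Model was 1.96-fold above control (log2 fold change 0.97, SE 0.22; adjusted p = 0.0628, edgeR), and by DESeq2 the adjusted p was 0.00222.

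DNA just upstream of Tlr2 is shown because its transcript rose in both comparisons of the treated group; it is from RefSeq on GRCm38.p6, read on the minus strand, and capitals mark 2 overlapping matches to the NF-kappaB consensus.
Tlr2, chr3:83841768-83841858: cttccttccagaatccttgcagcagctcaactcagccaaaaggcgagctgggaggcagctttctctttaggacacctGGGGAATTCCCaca
The matches span positions -173 to -163 from the RefSeq start at 83841608. Promoters of 8 of the 10 genes were searched, with 12 start sites. Tlr4 had no promoter in the table, and Cd14 was left out of the search. The NF-kappaB consensus was found in 3 of these 12 windows, 1 each of Il1r1, Tlr2 and Nlrp3, and in 7.25% of all promoters. The Il1r1 match lies before 40266586, the start of ENSMUST00000114795, which was assigned counts in treated 1 alone. ENSMUST00000195402, which starts close by at 40266657, had counts in every library. The Nlrp3 match lies before 59541569, beside the start of ENSMUST00000079476, which had 7 counts in treated 2 and none elsewhere. The windows before 40225080 (Il1r1) and 59542686 (Nlrp3), where the transcripts with most counts start, held no match. TGANTCA was found in 2 (Il1rn and Il1a), the PU.1 core GAGGAA in 2 against 23.3% of all promoters, and the STAT motif TTCNNNGAA in 1 against 7.02%.

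Tlr4, at chr4:66827584-66930284 on the plus strand, encodes the receptor for lipopolysaccharide. It read 0.697, 0.827 and 1.59 CPM in control, 0.666, 1.58 and 0.752 in model and 1.47, 1.96 and 1.75 in treated libraries. All groups overlapped. Adjusted p-values by edgeR were 0.982 for model versus control, 0.336 for treated versus model (log2 fold change 0.78, SE 0.46) and 0.311 for treated versus control (log2 fold change 0.73, SE 0.46).

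Cd14, on chromosome 18, encodes the co-receptor that hands lipopolysaccharide to Tlr4 and lipoproteins to Tlr2. It stood at 3.29, 1.96 and 4.48 CPM in control, 4.94, 6.16 and 6.72 in model and 89.4, 45.4 and 30.6 in treated libraries. The treated libraries differed among themselves by more than those of the other groups but lay far above them, and model lay above control. Cd14 rose 9.28-fold from model to treated (log2 fold change 3.21, SE 0.45; adjusted p = 0.00535, edgeR) and 17.0-fold from control to treated (log2 fold change 4.09, SE 0.48; adjusted p = 0.00118, edgeR). The 1.83-fold difference between model and control did not pass (log2 fold change 0.87, SE 0.44; adjusted p = 0.437, edgeR). Cd14 thus rose while the transcript of its partner Tlr4 passed no test; whether their changes differ was not tested.

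Myeloid cells carry Tlr2, Cd14 and Il1rn, and 3 lists of their markers were read beside these genes. The 15 macrophage and Kupffer cell markers summed to 299 to 461 CPM in control, 427 to 557 in model and 844 to 1115 in treated libraries, with none at 0. Of these, 4 were called higher in treated than model (Cd68, Mpeg1, Lyz2 and Itgam) and 5 in treated than control. That is 26.7% and 33.3%, against 5.21% and 9.36% of all genes called higher. The other 11 passed no test in treated versus model. Of the full list of 15, 12 had a positive log2 fold change there (median 0.554). Uncalled markers went both ways, and those given here were named after their values were seen. Clec4f (0.937-fold), Timd4 (0.968-fold), Vsig4 (1.00-fold) and Cd163 (0.313-fold), all Kupffer cell markers, were flat or lower. Model means lay below treated means for Adgre1 (4.30 against 6.04 CPM), Csf1r (39.6 against 58.1), Cd5l (79.0 against 100.1) and C1qa (35.7 against 49.9). The 10 monocyte-derived macrophage markers summed to 63.3 to 78.2, 68.4 to 103 and 360 to 514 CPM. Of these, 3 were called higher in treated than model and 7 in treated than control. That is 30% and 70%, against 5.21% and 9.36% of all genes called higher. Gpnmb alone stood at 1.56 ± 0.275 CPM in control, 7.47 ± 2.26 in model and 254 ± 68.1 in treated.

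The 13 neutrophil markers summed to 9.26 to 25.6, 75.3 to 121 and 464 to 816 CPM in control, model and treated libraries, with Ly6g and Mmp8 at 0 in control. Lcn2 alone made up 74.6% to 97.0% of the treated sums and was the 1 marker of 12 tested that was called in treated versus model. Without Lcn2 the other 12 summed to 3.99 to 6.69 CPM in control, 15 to 34.5 in model and 40.9, 14 and 205 in treated 1 to 3, so model and treated overlapped and treated 3 stood apart. Of the 11 of these that were tested, 0 were called in treated versus model by edgeR (0 at an unadjusted p under 0.05) and 5 were called higher in treated versus control. Of all genes tested, 9.65% and 17.8% were called in these comparisons. The part of any of these cells in the rise of Il1rn, Tlr2 and Cd14 was not tested.

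Nlrp3, at chr11:59541568-59566956 on the plus strand, encodes the sensor of an inflammasome that activates caspase-1. It read 1.20, 0.865 and 0.914 CPM in control, 0.793, 1.03 and 0.560 in model and 1.31, 1.56 and 1.86 in treated libraries. Treated libraries lay above all others by small margins. Nlrp3 was 1.98-fold higher in treated than model (log2 fold change 0.98, SE 0.38; adjusted p = 0.139, edgeR) and 1.58-fold higher than in control (log2 fold change 0.66, SE 0.38; adjusted p = 0.265, edgeR), and neither passed. Model and control differed by -0.32 (SE 0.38; adjusted p = 0.8, edgeR).

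Per length, the order of the 10 genes changed between groups. In control, Il1rap (56.0 summed transcript FPKM) was followed by Il1r1 (24.6 ± 10.9), and then by Cd14 (1.69), Il1rn (1.47), Il1a (1.44) and Il1b (1.13), which did not differ beyond their spread; Tlr2 (0.463), Tlr4 (0.208), Nlrp3 (0.203) and Il1r2, listed at 0, came last. In treated libraries Il1r1 (35.2 ± 6.79), Cd14 (33.7 ± 19.6) and Il1rap (31.2 ± 4.67) stood together within their spread, followed by Il1rn (12.1 ± 2.32) and Tlr2 (3.30 ± 0.461). Il1a (1.65), Il1b (1.03), Tlr4 (0.406), Nlrp3 (0.395) and Il1r2 (0.296) were lowest there. Model kept Il1rap (38.1) and Il1r1 (10.3) on top, with Cd14 (3.30) the third. The place of Il1rap depended on the measure. By mean gene FPKM, Il1r1 stood above Il1rap in control (22.0 against 13.1) and slightly in model (9.15 against 8.72). In treated libraries Il1rap had 7.14 gene FPKM, against 31.0 for Il1r1 and 31.2 for Cd14.

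The rest of the pathway was read through 6 lists of 104 genes, of which 92 were tested. Of the 92, 2 were called in model versus control (both higher), 16 higher and 3 lower in treated versus model, and 37 higher and 4 lower in treated versus control, that is 2.17%, 20.7% and 44.6%, where all genes tested gave 1.12%, 9.65% and 17.8%. Because the lists were chosen with earlier results of these data known, these shares describe the lists and do not test them. For each list and comparison, up to 3 called genes with the smallest p are named.

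Among 16 other Toll-like receptors and cofactors, 3 rose and 1 fell from model to treated, and 8 rose and 1 fell from control to treated. That is 25% and 56.2%, against 9.65% and 17.8% of all genes called. The median log2 fold changes were 0.85 and 1.43. Tlr13, an endosomal sensor of bacterial ribosomal RNA, rose from 2.47 ± 1.21 to 10.1 ± 0.417 CPM (adjusted p = 0.00497, edgeR). Tlr5, the flagellin receptor, fell 2.43-fold, from 7.32 ± 0.848 to 3.01 ± 0.799 CPM (adjusted p = 0.00807, edgeR). Ly86, the cofactor of a Toll-like receptor relative on B cells and macrophages, rose 2.12-fold (adjusted p = 0.0283, edgeR). From control to treated, Tlr13 rose 6.14-fold (adjusted p = 0.000733, edgeR), Ly86 3.05-fold (0.00243) and Unc93b1, which carries Toll-like receptors to endosomes, 1.43-fold (0.0135). These receptors thus did not move 1 way.

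Of the other interleukin-1 family, 8 of 13 genes had a count and 7 were tested. Only Il18bp, which encodes the soluble inhibitor of interleukin-18, was called in this list; it rose 1.76-fold from model to treated (adjusted p = 0.0248, edgeR) and 2.28-fold from control to treated (adjusted p = 0.00216, edgeR). Its levels were 7.85 ± 1.42, 10.2 ± 1.45 and 17.9 ± 3.75 CPM in control, model and treated. Like Il1rn, it encodes a secreted inhibitor of a ligand of this family.

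Among 20 adaptors and kinases that lead to NF-kappaB, 2 rose from model to treated and 0 fell (3 were at an unadjusted p under 0.05), a share of 10% that lies near the 9.65% of all genes. Ticam1, the adaptor of Tlr3 and Tlr4, rose 1.61-fold (adjusted p = 0.0116, edgeR) and Irak3, an inhibitory kinase homologue, 4.67-fold from 0.495 ± 0.335 to 2.33 ± 0.865 CPM (adjusted p = 0.0306, edgeR). From control to treated, 4 rose and 2 fell, 30% against 17.8% of all genes. Among them, Traf3 rose 1.49-fold (adjusted p = 0.0169, edgeR), Irak1 rose 1.31-fold (0.0249) and Chuk fell 1.27-fold (0.0266).

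Of 14 NF-kappaB subunits and inhibitors tested, 5 rose from model to treated and 9 from control to treated. That is 35.7% and 64.3%, against 9.65% and 17.8% of all genes called. Rela, the main activating subunit, rose from 50.7 ± 2.77 to 100.3 ± 18.4 CPM between model and treated (adjusted p = 0.00115, edgeR). Tnfaip3, which encodes the feedback inhibitor A20, rose 3.6-fold, from 4.30 ± 1.10 to 15.5 ± 2.87 CPM (adjusted p = 0.00149, edgeR), and Relb 3.65-fold (adjusted p = 0.00362, edgeR). From control to treated, Tnfaip3 rose 5.72-fold (adjusted p = 0.000137, edgeR), Rela 1.88-fold (0.00085) and Bcl3, a nuclear regulator of this family, 2.50-fold (0.00118). No gene of this list was called lower in these comparisons.

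Of 16 inflammasome and processing genes tested, 1 rose and 1 fell from model to treated, 12.5% against 9.65% of all genes. Nlrp6, a sensor of intestine and liver, fell 2.08-fold, from 407.7 ± 14.9 to 196 ± 21.5 CPM (adjusted p = 0.00075, edgeR), and Nek7, which binds Nlrp3, rose 1.25-fold (adjusted p = 0.0327, edgeR). From control to treated, 3 rose and 1 fell, 25% against 17.8% of all genes. The 3 of these with the smallest p were Nlrp6, Capn1 and Gsdmd. Capn1, a calcium-dependent protease, rose 1.59-fold (adjusted p = 0.0136, edgeR). Gsdmd, which forms the pore of inflammasome-driven death, rose 1.32-fold (adjusted p = 0.0169, edgeR). Nlrp6 fell 2.26-fold (adjusted p = 0.00019, edgeR).

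Of 19 genes induced by these receptors that were tested, 2 rose from control to model, Icam1 1.83-fold (adjusted p = 0.0184, edgeR) and Saa2 5.78-fold (adjusted p = 0.0446, edgeR), an adhesion molecule and an acute phase protein. That is 10.5% of the 19, against 1.12% of all genes called. From model to treated, 4 rose and 1 fell, 26.3% against 9.65% of all genes. Cxcl2, a chemokine for neutrophils, rose 12.6-fold (adjusted p = 0.00115, edgeR), Lcn2, an iron-trapping protein, 8.62-fold from 70.7 ± 13.6 to 609 ± 163 CPM (adjusted p = 0.014, edgeR) and Ccl2, a chemokine for monocytes, 7.74-fold (adjusted p = 0.0221, edgeR). The gene that fell, named after its value was seen, was Sod2, a mitochondrial antioxidant enzyme, by 1.31-fold (adjusted p = 0.032, edgeR). Between control and treated, 12 rose, 63.2% against 17.8% of all genes called. Among them, Icam1 rose 2.80-fold (adjusted p = 0.00011, edgeR), Cxcl2 13.5-fold (0.000489) and Lcn2 53.5-fold (0.00102), which also stands in the neutrophil list.

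**Figure D5:**
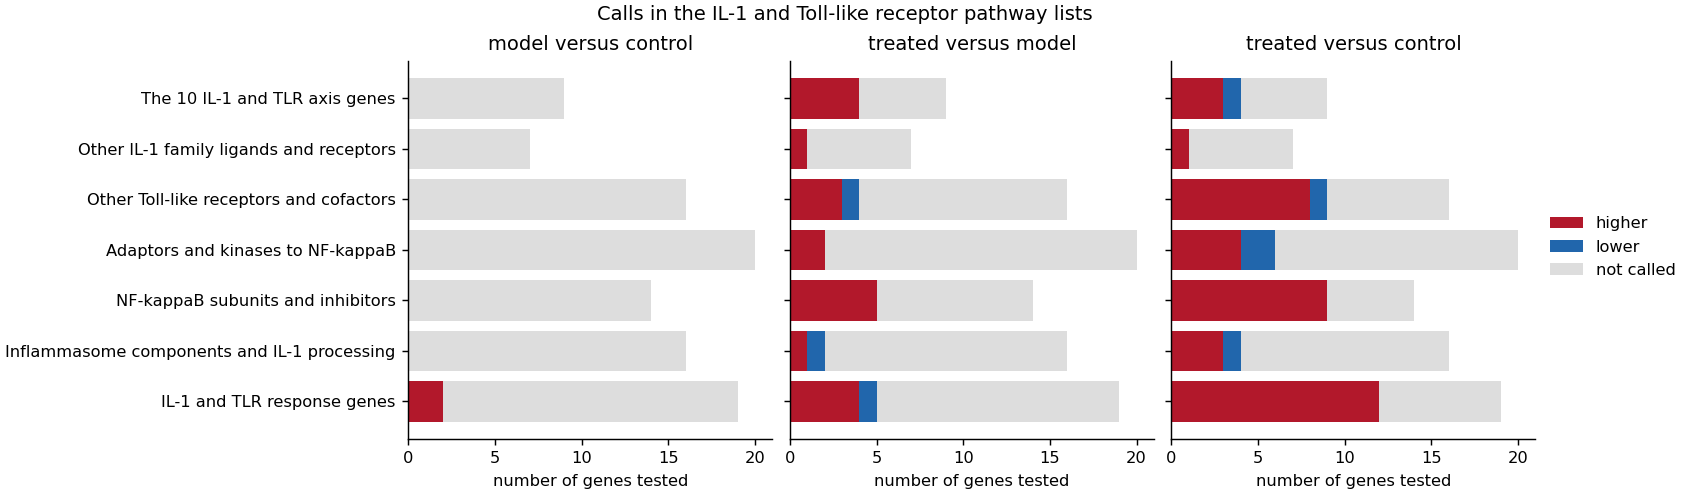
Number of genes tested in each list and how many were called higher (red), lower (blue) or not called (grey) in the 3 comparisons. In treated versus control, 12 of 19 response genes, 9 of 14 NF-kappaB genes and 9 of 16 other Toll-like receptors and cofactors were called.

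The genes whose pattern over the 9 libraries lay nearest to each of the called genes were picked by the root mean square difference of mean-centred log2 CPM among 13363 genes. For Il1rn these were Basp1, Tnfrsf12a and Col1a1, at 0.25, 0.263 and 0.318. Tlr2 had Gltp at 0.133, Mpeg1 at 0.196 and Ncf4 at 0.21. Mpeg1 is a macrophage marker of the list above, and the other neighbours named in this paragraph stand in no marker list. Il1rap had Slco1b2 at 0.091, Foxo4 at 0.113 and Sdr9c7 at 0.115, and Slco1b2 is a hepatocyte uptake transporter. Cd14 had Abcc4, Slc1a4 and Srxn1, at 0.259, 0.296 and 0.393. For Il1r1, Rpsa-ps9 and Rpsa-ps7 at 0.25 and 0.315 are pseudogenes whose counts are uncertain, followed by Cd93 at 0.345. Each value is a description over 9 libraries that share the same 3 groups.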

How the data were processed

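RNA of mouse liver was measured in 9 libraries. Per the file headers, the deposited tables hold estimated counts and FPKM (fragments scaled to length and library size) for genes and transcripts. HISAT2 is named, without a version, per the submitters' processing notes; the quantifier and its strand setting are not stated in those notes, the labels or the headers. Coordinates of the 10 genes matched GENCODE M21 (GRCm38).

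Estimated counts, whole numbers as deposited, entered 1 edgeR quasi-likelihood fit of the 9 libraries together (edgeR 4.0.16, R 4.3.3), after TMM scaling and filterByExpr (minimum count 10, minimum total 15). Calls needed a p under 0.05 after Benjamini-Hochberg adjustment over the 18113 genes tested. Levels are CPM on TMM-scaled library sizes, as mean ± SD. Levels between genes are deposited transcript FPKM summed per gene, since gene FPKM of Il1rn divided by a length that includes a retained intron. Counting floors of 3 counts cover counting error only.

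The 10 genes and the 16 lists were chosen with earlier results of these data known. Of 214 list entries, 208 matched a gene with a count. Named were the 10 genes, the 3 called genes with the smallest p per pathway list and comparison, and the 3 tested genes of at least 1 CPM with the nearest pattern for each gene (prior count 2); marker lists are given by sums and counts. Alternatives were a replicate block, RLE scaling, DESeq2 1.42.0, limma-voom (limma 3.58.1), other filters, the 2 groups alone, and each library left out. Tested on simulated counts over 17495 genes for model versus control, the procedure called 45 of 100 genes changed 2-fold and 86 of 100 changed 4-fold, with 7 false calls. For treated versus model, over 17417 genes, these were 47 and 83 with 13 false calls, and for treated versus control, over 17428 genes, 45 and 89 with 9. The changed genes were drawn from all genes with a mean of at least 1 CPM, so these rates need not hold for genes near or below that level. No 2 libraries of a group agreed within sampling noise, with a chi-square per gene of 77.6 to 163.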

Additional observations from a re-analysis of the deposited data

How the results depend on the processing

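Across 16 alternatives, Il1rn, Tlr2 and Cd14 stayed called in treated versus model (adjusted p at most 0.00226, 0.00734 and 0.0319) and in treated versus control, as did Il1rap in the latter (at most 0.00243). The calls of the other genes depended on the setting. In model versus control, where edgeR called none, DESeq2 called 1 gene higher and 2 lower, and 1 was lower with no filter, with a mean of at least 1 CPM or with the 2 groups alone; leaving out 1 library gave 0 to 1. In treated versus model, 1 was lower with DESeq2, limma-voom, no filter or a mean of at least 1 CPM, and leaving out 1 library gave 0 to 1; Il1r1 lost its call with no filter (0.0912). Directions turned only in values that passed no test: for model versus control, Il1b to 0.037 with limma-voom and 0.412 without control 3 (range with 1 library left out -1.14 to 0.412), and Tlr4 to 0.393, 0.172 and 0.119 without control 3, model 1 or model 3 (range -0.537 to 0.393); for treated versus model, Il1b to -0.051 without treated 1 (range -0.051 to 0.466); for treated versus control, Il1a to 0.152 and 0.001 without control 3 or treated 2 (range -0.136 to 0.152), Il1b to 0.303 and 0.716 with limma-voom or without control 3 (range -0.839 to 0.716), and Il1r1 to -0.073 without control 1 (range -0.073 to 0.491). The cause was not tested.

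Same-numbered libraries did not deviate together (correlations -0.076 to 0.072). With 3 libraries a group, this cannot exclude a pairing by number. A replicate block changed 0 calls of the 9 genes, leaving 4 higher in treated versus model and 3 higher and 1 lower in treated versus control, and gave 61 genes higher and 59 lower over the whole table in model versus control, where the fit without it gave 94 and 108. There DESeq2 called 444 and 427, and leaving out 1 library 28 to 112 and 26 to 119. In treated versus model, DESeq2 called 1423 higher and 1319 lower against 943 and 805, and leaving out 1 library gave 525 to 915 and 357 to 745; in treated versus control, 999 were lower without treated 1 against 1535. With a pseudocount of 1, the log2 difference between treated and model fell from 2.30 to 1.59 for the ratio of Il1rn to Il1b and from 1.77 to 1.24 for that to Il1a. The ratio from summed transcripts was chosen after seeing the data. A ratio of Il1r2 to Il1r1 changed sign with the pseudocount and is not read.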

Other observations

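For the 4 tested genes that edgeR called in no comparison, the genes nearest in pattern were Mpzl1 (0.106), 1700025G04Rik (0.185) and Bloc1s4 (0.195) for Il1a, Phf11d (0.148), Fam49a (0.158) and Clstn1 (0.164) for Nlrp3, Mbd1 (0.19), Ncoa7 (0.23) and Yod1 (0.254) for Tlr4, and Gm26621 (0.388), Gtf2ird2 (0.459) and Nfat5 (0.509) for Il1b, as root mean square log2 differences over 9 libraries. The nearest genes of Il1b lay furthest away among these 4.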
